A study of Mus musculus with 6 samples.

Results

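The interval described here lies on mouse chromosome 18 between 37 and 38 Mb (mm9) and carries the name of the clustered protocadherins. Its members are 173 enriched regions out of 23446 in the authors' list. They were chosen by position. All peaks that lay completely between bases 37000001 and 38000000 were taken, 286 of the 42886 listed, and peaks that touched end to end were joined into 1 region. The interval was proposed because it holds more regions than other bins of 1 Mb, so its number of regions is a description and supports nothing. It was divided at fixed positions into an alpha sub-interval (37080001 to 37350000), a beta sub-interval (37400001 to 37780000) and a gamma sub-interval (37820001 to 38000000).

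The study measured m6A (N6-methyladenosine), an adenosine of RNA that carries a methyl group, by immunoprecipitation of RNA fragments with an antibody against m6A followed by sequencing (MeRIP-seq). The RNA came from midbrain and striatum of adult wild-type littermates on the C57BL/6 background and was depleted of ribosomal RNA. The 3 MeRIP libraries went through the pull-down and the 3 input libraries did not, and the labels assign both brain areas together to each library. The deposited result is 1 list of positions for all 6 libraries. It gives no height, strand, gene name or value per library, so the depth is unknown here, no value below has an error between animals, and no difference below was tested.

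Clustered protocadherins are cadherin-like adhesion proteins on the surface of neurons. Each neuron uses a small choice of them, and they are known for self-recognition between branches of the same cell. In the alpha and gamma families, many large variable exons lie in a row, each with its own promoter, and each is spliced to a shared set of constant exons at the end of the family. Genes of the beta family are mostly made of 1 large exon and have no shared constant exons.

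The gene table of another build, GRCm38, gives the order of these genes. It lists 14 protein-coding genes of the alpha family, Pcdha1 to Pcdha12 followed by Pcdhac1 and Pcdhac2. Other protein-coding genes, Gm37013, Gm38666 and Gm38667, stand among them. Next come 22 genes of the beta family, Pcdhb1 to Pcdhb22, with 0 other protein-coding genes between the last alpha and the first beta gene. Then follow Slc25a2, a mitochondrial carrier, and Taf7, a subunit of a general transcription factor, and after them 21 genes of the gamma family. In the gamma family, 12 genes named Pcdhga and 6 named Pcdhgb are partly interleaved, and Pcdhgc3, Pcdhgc4 and Pcdhgc5 stand last. Coordinates of that build do not apply to mm9. No region was therefore placed on a gene, and the names alpha, beta and gamma below stand for positions that could not be checked against an annotation.

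The regions were unevenly divided over the 3 sub-intervals, with the most in beta. Beta held 88 regions (50.9% of the interval's regions), gamma held 45 (26.0%) and alpha held 36 (20.8%). The other 4 lay between beta and gamma. Beta also held 55.1% of the covered bases, 24125 of 43800, against 9825 in gamma and 8125 in alpha. Per 100 kb of the set length, gamma had the highest number with 25 regions, followed by beta with 23.2 and alpha with 13.3. That order depends on empty sequence inside the borders, because the last 100100 bases of the beta sub-interval held no region. Between the first and last region of each, the numbers per 100 kb were 39.1 in beta, 28.4 in gamma and 14.2 in alpha, and the shares of bases covered were 10.7%, 6.20% and 3.21%.

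**Figure D1:**
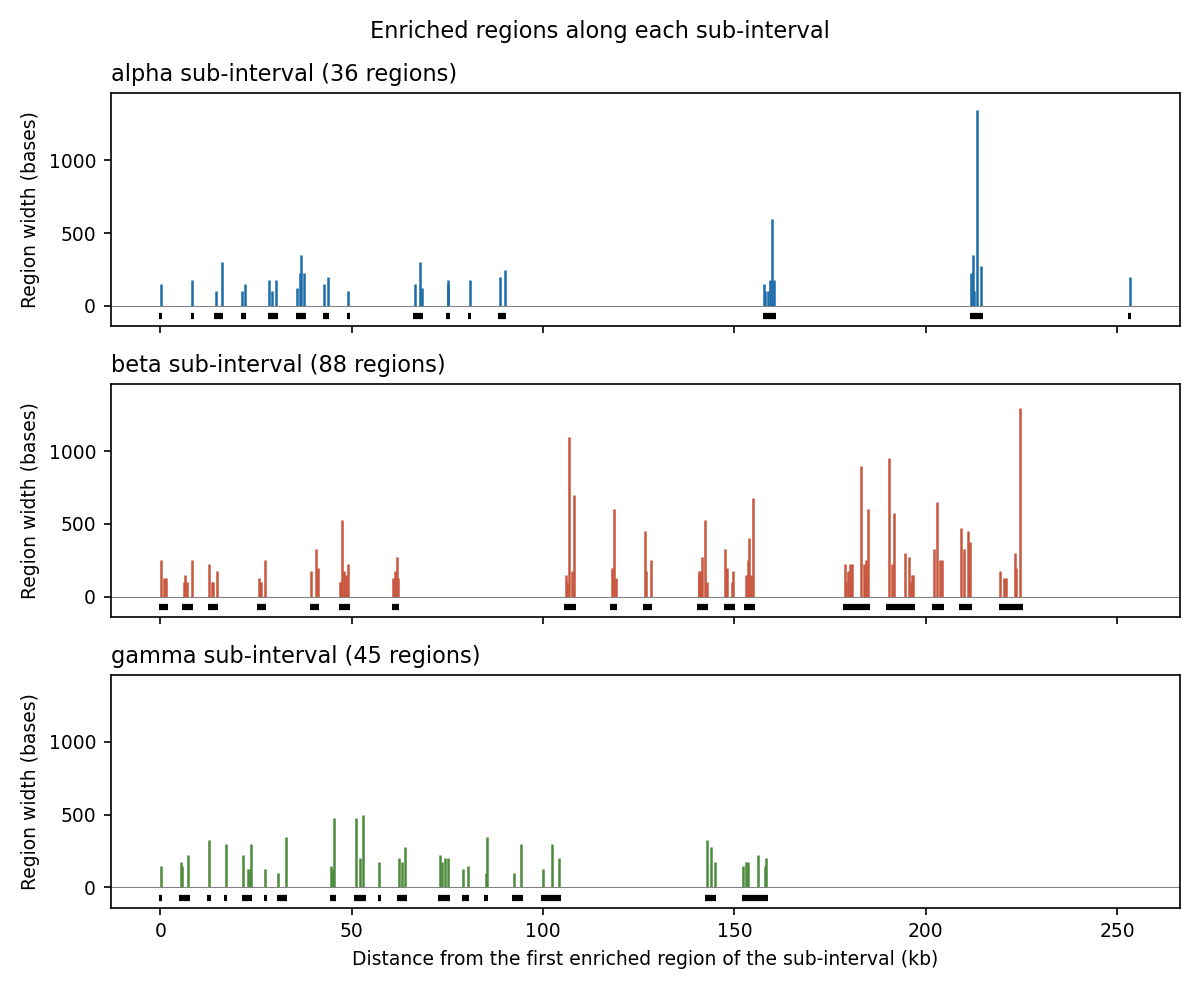
Each vertical line is 1 enriched region, placed by its distance in kb from the first region of its sub-interval and drawn as high as the region is wide in bases; black bars under the axis mark groups of regions, drawn 0.3 kb longer at each end so that short ones are visible. Beta has 11 of its 12 regions over 500 bases to the right of its widest gap, and gamma has none over 500 bases.

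Stretches without any region separated the sub-intervals. Between the last region below the interval, which ended at 36957900, and the first alpha region, which began at 37091601, lay 133.7 kb. Between alpha and beta lay 109.8 kb, from 37344951 to 37454750. After the last beta region came 121.95 kb, from 37679901 to 37801850, and after the last gamma region 115.1 kb, from 37981701 to 38096800. Stretches of this length are common on the chromosome, where 182 of 884 stretches between neighbouring regions exceeded 100 kb. At the borders, the nearest region outside was 375 bases wide below and 475 bases wide above, while the first and last regions inside were 150 and 200 bases wide. No region crossed the border at 37000000 or at 38000000.

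Windows of 100 kb count the same regions again and describe where they lay densest. Because the interval was chosen for its number of regions, its place among the densest windows is no separate finding. When windows were started at each region of the autosomes and X and taken without overlap, 4 of the 10 with the most regions lay in the interval. The window with the most, from 37581076 to 37681075, began in beta and held 52 regions. The second, from 37828601 to 37928600, lay in gamma and held 35. A window at the start of beta, from 37454751 to 37554750, was the fourth with 28 regions. A window at the start of alpha, from 37091601 to 37191600, held 24. The highest window outside the interval began at base 9001276 of chromosome 19; its 30 regions covered 7825 bases. The gamma window with its 35 regions also covered 7825 bases, and the first beta window covered 16025.

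The median width was 175 bases in alpha (95% binomial interval of the median 150 to 200), 200 bases in beta (175 to 225) and 200 bases in gamma (175 to 225). The median was 225 bases (200 to 225) both in the whole list and on the rest of chromosome 18. The intervals of the 3 sub-intervals overlap, those of beta and gamma overlap with that of the whole list, and alpha's meets it at 200 bases. They treat regions as independent, which neighbours on 1 chromosome are not, and cover counting error only. The quartiles were 143.75 and 225 bases in alpha, 125 and 300 in beta, and 150 and 275 in gamma. Regions made of a single peak, which are at most 200 bases wide, numbered 25 of 36 in alpha (69.4%), 47 of 88 in beta (53.4%) and 28 of 45 in gamma (62.2%). In the whole list the share was 49.5%, and on the rest of chromosome 18 it was 49.2% of 712 regions.

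Regions over 500 bases were most frequent in beta, but those over 1000 bases were not. Regions over 500 bases numbered 12 of 88 in beta (13.6%), 2 of 36 in alpha (5.56%) and 0 of 45 in gamma, against 11.5% of the whole list. In beta these 12 regions made up 37.7% of the covered bases. Of the 15 such regions in the interval, the remaining 1 lay between beta and gamma. Over 1000 bases were 2 of 88 regions in beta (2.27%), 1 of 36 in alpha (2.78%) and 0 of 45 in gamma. In the whole list that share was 1.45%. At the narrow end, the minimum width of 100 bases occurred in 7 of 36 alpha regions (19.4%), 14 of 88 beta regions (15.9%) and 3 of 45 gamma regions (6.67%), against 12.5% of the whole list.

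**Figure D2:**
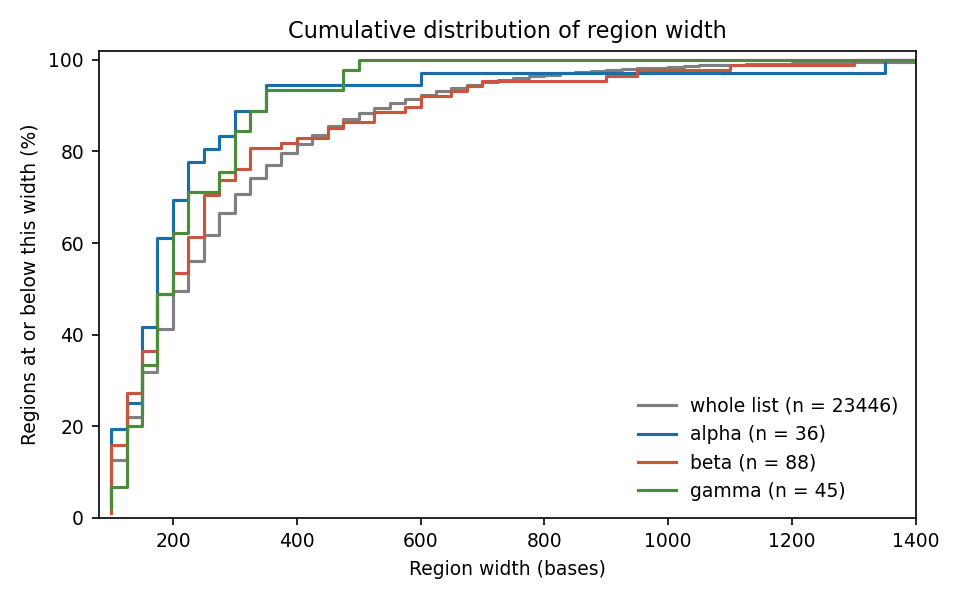
The curves give the percentage of regions at or below each width in bases, for the 3 sub-intervals and for all 23446 regions of the list; the axis ends at 1400 bases. The gamma curve reaches its top at 500 bases, the alpha curve is nearly flat above 350 bases because only 2 of its regions are wider, and the beta curve runs near that of the whole list above 500 bases.

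The widest region of alpha ran from 37304401 to 37305750, 1350 bases that the list held as 7 peaks. It was also the widest of the interval. The next in alpha ran from 37250976 to 37251575 (600 bases), and the third from 37128226 to 37128575 (350 bases). Both of the regions over 500 bases lay in the far part of alpha, after its widest gap, and the other 34 alpha regions were at most 350 bases wide.

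The widest region of beta was also its last one, from 37678601 to 37679900, with 1300 bases and 7 peaks. The next ran from 37561001 to 37562100 (1100 bases), and the third from 37644701 to 37645650 (950 bases). In gamma the widest region ran from 37876151 to 37876650 (500 bases). The next 2 were both 475 bases wide and lay at 37868451 to 37868925 and at 37874326 to 37874800. All 3 of these gamma regions fell within 8.2 kb of each other.

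The regions came in tight sets separated by longer gaps. The median gap to the next region was 300 bases in beta (95% binomial interval 200 to 450), 900 bases in alpha (475 to 5225) and 1637.5 bases in gamma (725 to 3600). Beta's interval did not overlap those of alpha and gamma, though its upper end of 450 bases lay close to alpha's lower end of 475. These intervals treat neighbouring gaps of 1 list as independent, which they are not, so this is no test of a difference. Joining peaks up to 100 bases apart gave a beta median of 462.5 bases. Gaps of at most 1000 bases made up 65 of 87 in beta (74.7%), 18 of 35 in alpha (51.4%) and 18 of 44 in gamma (40.9%). Gaps of at most 100 bases numbered 21 in beta, 4 in alpha and 3 in gamma. A gap of 25 bases, the smallest the position grid allows, occurred 8 times in beta and once each in alpha and gamma. Without heights, separate sites and 1 stretch broken by the peak calling cannot be told apart at such gaps.

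Linking regions with gaps up to 3000 bases, a distance in the order of a large coding exon, gave 15 groups in alpha, 18 in beta and 18 in gamma. These numbers depend on the link. Links of 1000 and 5000 bases gave 18 and 14 groups in alpha, 23 and 12 in beta, and 27 and 10 in gamma. For comparison of the numbers only, the gene table lists 14, 22 and 21 protein-coding genes in the 3 families. A group is a unit of distance and was not matched to a gene. Beta groups held a mean of 4.89 ± 2.03 regions (SD over 18 groups), gamma groups 2.50 ± 1.34 (18 groups) and alpha groups 2.40 ± 1.55 (15 groups). Groups of 1 region numbered 0 in beta, 5 in gamma and 5 in alpha. Groups of 4 or more numbered 14 in beta, 3 in gamma and 3 in alpha.

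The covered bases per group had a median of 1100 in beta (95% binomial interval 700 to 1750), 500 in gamma (300 to 775) and 350 in alpha (175 to 575). The lowest beta group covered 500 bases and the highest 3150. In alpha the range was 100 to 2300, and in gamma 125 to 1175. The ranges of all 3 overlapped.

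Groups of 2 or more regions were mostly 1 to 3 kb long. The link of 3000 bases bears on this length, so it is no separate finding about exons. Their median length from first to last base was 1887.5 bases in alpha (10 groups), 2200 bases in beta (18 groups) and 2150 bases in gamma (13 groups). Of these 41 groups, 33 were 1000 to 3000 bases long, 3 were shorter and 5 were longer. Regions filled a median of 47.4% of that length in beta, 32.1% in gamma and 30.3% in alpha. The fill ranged from 27.3% to 90.8% in beta, from 14.04% to 90.0% in gamma and from 21.9% to 86.7% in alpha.

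In alpha, the 2 groups with the most covered bases lay far from the others. The first was the group from 37303351 to 37306150, with 5 regions, 2300 covered bases and 82.1% of its length filled. The second ran from 37249276 to 37252100, with 6 regions and 1300 covered bases. The third, from 37127276 to 37129275, held 4 regions and 925 covered bases and belonged to the dense first part. The first region of alpha (37091601 to 37091750) and the last (37344751 to 37344950) each stood alone.

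In beta, the group with the most covered bases ran from 37633401 to 37639950, with 11 regions and 3150 covered bases in 6550 bases. Its neighbour from 37644701 to 37651550 held 8 regions and 2725 covered bases. The third, from 37560601 to 37563050, held 5 regions and 2225 covered bases in 2450 bases and was 90.8% filled. In gamma, the group from 37874326 to 37876650 led with 3 regions and 1175 covered bases. The last gamma group, from 37975551 to 37981700, spread 6 regions and 1075 covered bases over 6150 bases, a fill of 17.5%. The third gamma group by covered bases lay at 37896251 to 37898675, with 4 regions and 800 covered bases.

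The 2 sides of the widest gap held different numbers of regions in each sub-interval. The numbers are not per length, and in beta and gamma the sides differed much in length. In alpha they were 90.1 kb before the gap and 95.7 kb after it, from first to last region. In alpha this gap was 67550 bases long, from 37181726 to 37249275. Before it lay 24 regions in 12 groups with a widest region of 350 bases, and after it 12 regions in 3 groups with a widest of 1350. Although it held only 3 of the 15 groups, the far part held 46.8% of alpha's covered bases. Those 3 groups were also set far apart, with 51250 and 38600 bases between them.

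In beta the widest gap ran from 37516826 to 37560600, 43775 bases. The 28 regions before it had a median width of 150 bases and 1 was over 500 bases, while the 60 regions after it had a median of 225 bases and 11 were over 500. The 11 groups after it covered a median of 1625 bases (800 to 3150), and the 7 groups before it a median of 600 bases (500 to 1275). The part after the gap held 79.5% of beta's covered bases. It was also the longer part, with 119.3 kb from first to last region against 62.1 kb before the gap. In gamma the widest gap ran from 37927676 to 37965925, 38250 bases, with 36 regions in 16 groups before it and 9 regions in 2 groups after it. The part before it was 104.3 kb long and the part after it 15.8 kb, so the lower number after it came from a much shorter stretch. The median width was 200 bases before and 175 bases after that gap.

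Neighbouring groups lie more than 3000 bases apart by definition, so the distances between them depend in part on the link. Measured between midpoints, the median distance was 6.24 kb in gamma (95% binomial interval 5.38 to 8.81, 17 distances), 7.68 kb in alpha (6.49 to 40.1, 14 distances) and 11.35 kb in beta (7.24 to 13.4, 17 distances). The interquartile range was 5.38 to 8.81 kb in gamma, 6.67 to 15.8 kb in alpha and 7.24 to 13.4 kb in beta, and the 3 binomial intervals overlap. The order of the medians changed when peaks narrower than the list's median were left out. Beta then had 9075 bases, gamma 10181.25 and alpha 21062.5. That cut acted on single peaks before joining, so it was not a cut on region width. The order also changed with links of 5000 bases, which gave 8475 bases in alpha, 14137.5 in gamma and 15450 in beta. The coefficient of variation, the SD divided by the mean, was 1.15 in alpha, 0.96 in gamma and 0.76 in beta. Without distances over 30 kb it was 0.43, 0.38 and 0.49, so a few long distances made up much of the spread.

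**Figure D3:**
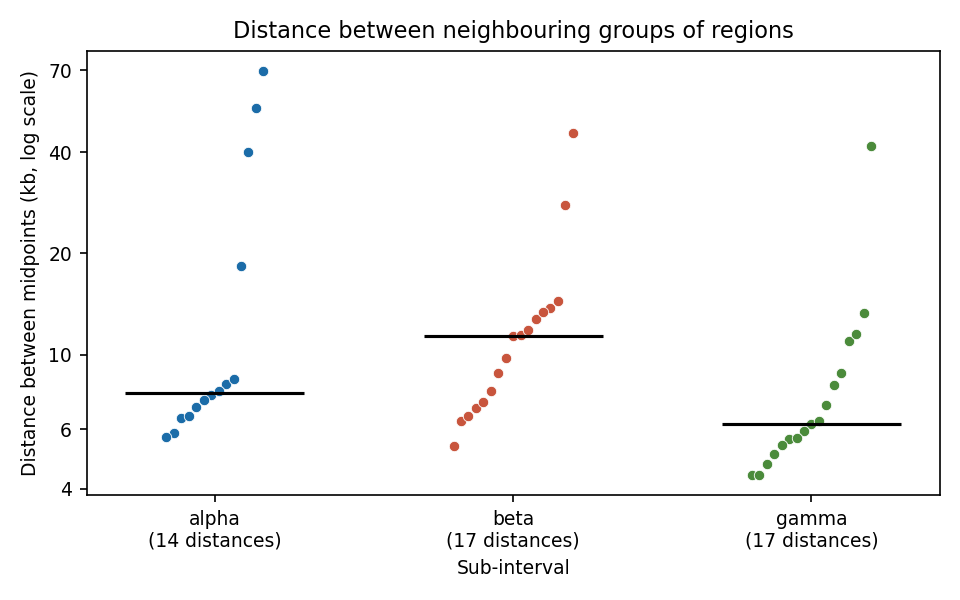
Each point is the distance in kb (log scale) between the midpoints of 2 neighbouring groups, and the horizontal line is the median of the sub-interval. Most points lie between 4 and 14 kb (10 of 14 in alpha, 14 of 17 in beta, 16 of 17 in gamma). Alpha has 3 distances of 40.1 kb or more, and the longest in beta and gamma are 45.6 and 41.6 kb.

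Runs of groups differed in how evenly they were spaced. The first 8 groups of alpha, from 37091601 to 37140725, were 5.84 to 8.19 kb apart, with a mean of 7.0 ± 0.78 kb (SD over 7 distances) and a coefficient of variation of 0.11. After a distance of 18.3 kb, 4 more groups followed at 5.70 to 8.48 kb, with a mean of 7.32 ± 1.45 kb (3 distances). Their coefficient of variation was 0.20. The first 7 gamma groups, from 37823351 to 37856225, were 4.39 to 6.35 kb apart, with a mean of 5.28 ± 0.90 kb (6 distances). The next 9 gamma groups were 5.08 to 10.95 kb apart, with a mean of 7.13 ± 2.05 kb (8 distances). Beta groups 8 to 13 were the least even of these runs, 5.35 to 14.4 kb apart, with a mean of 9.38 ± 3.59 kb (5 distances). Their coefficient of variation was 0.38. In the last 5 beta groups the mean distance was 10.1 ± 2.10 kb (4 distances). Their coefficient of variation of 0.21 lay below the 0.29 of the 9 later gamma groups and above the 0.17 of the first 7. The first 7 beta groups were not taken as a run. These runs were picked out after the positions had been seen, and by the link no gap between groups can be 3000 bases or less.

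A period was looked for in each sub-interval by correlating the covered bases in bins of 500 bases with themselves at lags of 2 to 30 kb. No lag gave more than a weak correlation. In beta the highest value was 0.17 at 12.5 kb, with further maxima of 0.14 at 7 kb and 0.13 at 20 kb. In gamma it was 0.20 at 28 kb, with 0.16 at 22 kb and at 11 kb. In alpha it was 0.16 at the shortest lag of 2 kb, which lies within the length of single groups, and the highest value from 4 kb on was 0.06 at 7.5 kb. In the part of alpha before its widest gap, the value at 7.5 kb was 0.23, and maxima of 0.15 stood at 6 kb and 14.5 kb. Bins of 1 sub-interval share the same few groups, so these values describe the list and have no p-value.

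**Figure D4:**
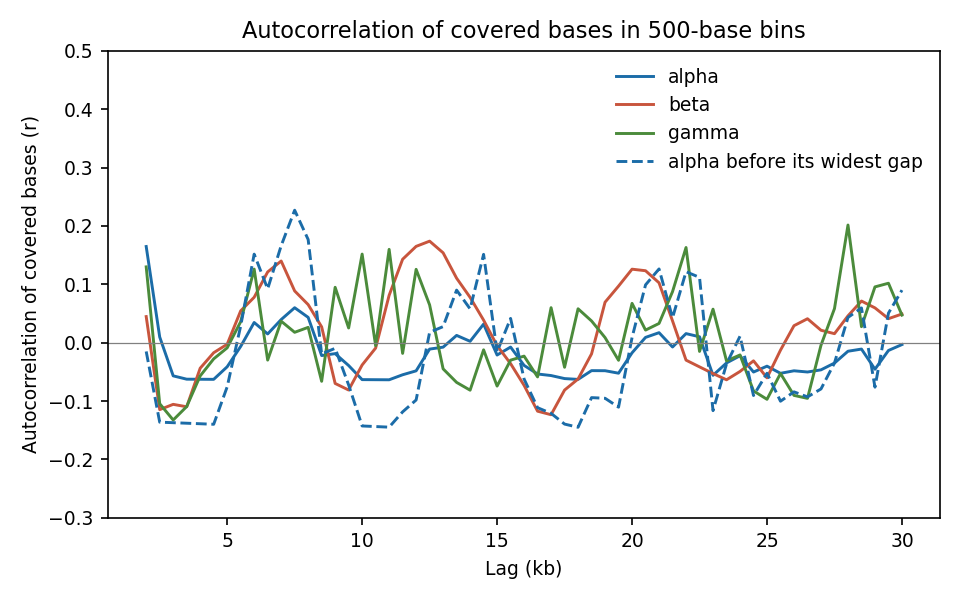
The lines give the correlation r of covered bases per 500-base bin with the same series shifted by the lag in kb, for each sub-interval and for alpha before its widest gap (dashed). The curves stay between -0.14 and 0.23, and the maxima lie at different lags in the 3 sub-intervals.

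The place of the covered bases within a group varied. The centre of covered bases, given as a percentage of the group's length from its lower coordinate, had a median of 54.4% in alpha, 51.0% in beta and 53.6% in gamma over groups of 2 or more regions. It ranged from 48.3% to 69.5% in alpha, from 39.1% to 70.02% in beta and from 44.9% to 72.1% in gamma. A group begins and ends with a region by definition, which draws this measure toward 50%. It lay above 50% in 9 of 10 alpha groups, 10 of 18 beta groups and 10 of 13 gamma groups. The widest region stood at the upper edge in 5 alpha, 4 beta and 9 gamma groups, and at the lower edge in 1, 6 and 2. Groups of 2 regions, where the widest is always at an edge, numbered 5 in alpha, 0 in beta and 4 in gamma. Where widths tied, the lower region was counted. The list has no strand, so upper and lower refer to coordinates only.

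The 4 regions between beta and gamma formed 2 groups. The first, from 37801851 to 37803175, held 2 regions and covered 1175 of its 1325 bases (88.7%), with 1 region of 1025 bases. The second, from 37815751 to 37816550, held 2 regions and covered 550 of 800 bases. In the gene order of the other build, Slc25a2 and Taf7 stand between the last beta and the first gamma gene. Whether these groups lie in those genes was not tested.

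The next 3 bins of 1 Mb by number of regions served as a scale for the grouping. They lie on chromosome 7 from 134000001 (79 regions), on chromosome 10 from 79000001 (72 regions) and on chromosome 10 from 80000001 (71 regions). Their median gaps of 2937.5, 3025 and 5350 bases stood against 600 bases in the protocadherin interval (95% binomial interval 400 to 900). The binomial intervals of the first 2 bins, 700 to 5975 and 650 to 7225 bases, overlap with that of the interval, and that of the third, 2750 to 13400, does not. A bin chosen for its number of regions has short gaps by construction. With a fixed link, the same choice favours more regions per group, fewer groups of 1 region and shorter distances between groups. The group values below are therefore a description only. Linked in the same way, they formed 38, 37 and 42 groups with a mean of 2.08, 1.95 and 1.69 regions, against 53 groups with a mean of 3.26 ± 1.99 (SD) in the interval. Groups of 1 region numbered 19, 22 and 25 in those bins and 10 in the interval. The median distance between groups was 16225, 14175 and 18975 bases in the 3 bins and 7968.75 bases in the interval. Groups of 2 or more regions had a similar median length, 1875, 1450 and 2300 bases in the 3 bins and 2125 bases in the interval. Regions filled a median of 46.7%, 52.2% and 46.7% of that length in the bins and 36.0% in the interval.

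The sources used here do not state how reads that match several similar protocadherin genes were placed, and its part in these positions was not tested. The list also does not separate the abundance of an RNA from its enrichment.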

How the data were processed

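Per the labels' protocols, tissue was microdissected, RNA was extracted with TRIzol and depleted of ribosomal RNA, and the m6A immunoprecipitation had 2 rounds. The build was mm9 and the tools named are SAMtools 0.1.18 and BWA 0.6.2-r126, per the submitters' processing notes. What each tool did, the peak caller, its threshold and the use of the input libraries are not stated in these sources. The list deposited by the authors holds 3 columns, the chromosome and the start and end position of each peak in bases.

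Peaks are 100 to 200 bases wide, and 100% of joined regions have both ends on a grid of 25 bases. Longer enriched stretches are cut into touching peaks, so touching peaks were joined; in the interval 113 pairs touched and 0 overlapped. Starts were counted from 0 in the file and are printed counting from 1. Regions with gaps up to 3000 bases were linked into groups within each sub-interval. For the interval as a unit, groups were formed over all 173 regions. The 95% intervals of medians are exact binomial (order statistic) intervals. Autocorrelation is Pearson's r between bins of 500 bases between the first and last region. The named items are the 3 widest regions, the 3 groups with the most covered bases, the widest gap and the first and last region of each sub-interval; runs of groups, the 2 sides of the widest gaps, windows of 100 kb and positions within groups were added after the positions had been seen. The members, sub-intervals and gene lists were chosen with earlier results of these data known. Samples form 3 MeRIP and 3 input libraries but enter no comparison. Gene names and order come from the RefSeq table of GRCm38. Joining, grouping and autocorrelation were tested on simulated data with clearly separated groups. Those data held no gaps near the link of 3000 bases, so they do not cover the choice of link. Figures were drawn with matplotlib 3.10.9 and values computed in Python 3.11.15 with scipy 1.17.1, pandas 2.3.3 and numpy 2.4.6. Alternatives were other joins, peak widths, borders, links and bin sizes.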

Additional observations from a re-analysis of the deposited data

How the results depend on the processing

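No paired analysis was possible because the list holds no value per library, and so leaving out a library was not possible either. Of 83 alternatives over 19 values, 55 stayed within 1.5 times a count, within the binomial interval of a median, or within 500 bases of a lag. Moving the borders by 10000 bases outward, extending gamma by 50 kb, links of 2000 bases, and leaving out distances over 30000 bases moved none. The sequence added around alpha and beta and above gamma held no region. Those alternatives could not change a value, although they count among the 55. Moving gamma's lower border gave 47 regions. With peaks narrower than the list's median left out, the interval held 71 regions (14 in alpha, 34 in beta, 20 in gamma), by construction; gap medians became 6625, 1450 and 4850 bases, the median width in beta 325 bases and the group distances 21062.5 bases in alpha, 9075 in beta and 10181.25 in gamma. Beta then had the shortest group distance, where it had the longest with all peaks; alpha's value lies inside its wide binomial interval. The lags of highest correlation became 6500, 7000 and 20500 bases. This cut acted on single peaks before joining, so it drops a region of 225 bases made of 2 peaks and keeps a single peak of 175 bases. Unjoined peaks numbered 286 in the interval and 158 in beta, with median widths of 158 bases in beta and 150 in gamma and median gaps of 300, 50 and 637.5 bases in alpha, beta and gamma. Joining peaks within 100 bases raised the median gap in beta to 462.5 bases. Links of 1000 bases gave group distances of 7200 bases in beta and 4706.25 in gamma. Links of 5000 bases gave 8475 bases in alpha, 15450 in beta and 14137.5 in gamma, with 10 groups in gamma. Alpha then had the shortest group distance, where gamma had it with links of 3000 bases. The lag in gamma, 28000 bases in bins of 500, was 22000 in bins of 250 and of 1000; in alpha it was 2000, and 7500 when lags began at 4000 bases. The lag thus depended on the setting in all 3 sub-intervals. Beta held the most regions, and had the shortest median gap, under each alternative. Distances over 30000 bases and lags from 4000 bases were chosen after seeing the data.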
